A study of Arabidopsis thaliana with 24 samples.

Results

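Leaf blades of Arabidopsis plants watered with reduced glutathione (GSH) were compared with leaf blades of plants watered with ammonium nitrate (NH4NO3), both taken 5 weeks after sowing (5W). The 2 arrays titled 5W GSH and the 2 arrays titled 5W NH4NO3 were chosen by their titles, 4 of the 24 arrays of the series. All plants were wild type of the Columbia ecotype, grown 3 to a pot in layered soil and vermiculite in a long light period. Pots were subirrigated weekly with 25 ml, starting in the first week. The GSH solution was 2 mM and the NH4NO3 solution 3 mM (its formula is written with the atoms in another order in the protocol), and both hold 6 mM nitrogen. The solutions therefore matched in nitrogen and differed in its form and in everything else that glutathione carries, sulfur included. Plants given 1 mM oxidized glutathione (GSSG) or plain water, and leaf blades taken at 4 weeks (4W), are used below as further values. The remaining arrays, of whole shoots taken at 3 weeks (3W), enter the estimate of the spread between replicates. No signals of genes from them are given. Nothing in the labels tells whether the 2 replicates of a group were separate pots, so a p-value here covers no more than the spread of these samples, possibly a technical one.

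Glutathione is a tripeptide thiol made from glutamate, cysteine and glycine. Plants use it as a redox buffer, as a form in which reduced sulfur is stored and moved, and as a substrate for detoxifying enzymes. Ammonium nitrate supplies the inorganic nitrogen forms that roots take up through dedicated transporters, and nitrate also acts as a signal that changes the transcription of nitrogen genes. A comparison of both at equal nitrogen asks which leaf transcripts differ between an organic thiol and an inorganic salt as the nitrogen given.

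Each value is the signal of 1 probe set on 1 array, on a linear scale that the authors set to the same trimmed mean on every array. Differences are on the log2(signal + 16) scale as GSH minus NH4NO3, with the standard error (SE) of a limma fit over all 24 arrays. A probe set was called at an adjusted p under 0.05 (Benjamini-Hochberg) over all 22746 probe sets. The 4 arrays were alike in their overall signal, with medians of 167.6 and 163.7 for GSH and 168.4 and 161.5 for NH4NO3. The actin control probe sets gave ratios of 3' to 5' signal, which reflect how intact the RNA was, of 3.04 and 2.65 with GSH and 3.00 and 2.86 with NH4NO3. Of the leaf marker genes, RCA, which encodes rubisco activase of the mesophyll, had signals of 30027 and 28473 with GSH and 35187 and 24908 with NH4NO3. The floral and meristem gene CLV3 was at most 23.1 on the 4 arrays. TRY, a regulator of trichomes, was dim, at 7.88 and 16.5 with GSH and 59.7 and 32.1 with NH4NO3, and its part in the results was not tested. In whole leaf blades, fewer cells of a type and less RNA per cell cannot be told apart. Of the other marker lists, 2 of 5 guard cell genes and 1 of 5 phloem genes had a probe set named here, none of the markers was called, and the epidermis, xylem, root and seed lists had 0.

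Few transcripts were called between the solutions by this fit, and nearly all of those called were lower with GSH. Limma called 10 of 22746 probe sets (0.044%), 1 higher (0.0044%) and 9 lower (0.0396%) with GSH, and 1417 had an unadjusted p under 0.05 (6.23%). Over all probe sets the median difference was 0.03 with an SD of 0.44, and 54.0% were positive. Differences beyond 1 on the log2 scale were about as many upward (450) as downward (467). Among these, probe sets that were above a signal of 106.7 in the higher group, and whose GSH and NH4NO3 arrays did not overlap, numbered 53 upward and 145 downward. Without the cuts on size and signal, the arrays did not overlap in 8126 probe sets (35.7%). Of these, 3461 (15.2% of all probe sets) were lower with GSH. The excess of downward probe sets was not present without these cuts. Of the 10 called probe sets 4 have a gene name here and 6 have none. With the replicate number as a block of the model 51 probe sets were called, including the 10. The labels do not say what the replicate numbers share.

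The count of 10 rests on all 4 arrays and, through the estimate of the spread, on the 3W shoots too. It became 6 without GSH replicate 1, 0 without GSH replicate 2, 5 without NH4NO3 replicate 1 and 3 without NH4NO3 replicate 2, and 0 with the spread estimated from the 4W and 5W arrays alone. In these cases of 0, 1240 and 1135 probe sets had an unadjusted p under 0.05.

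**Figure D1:**
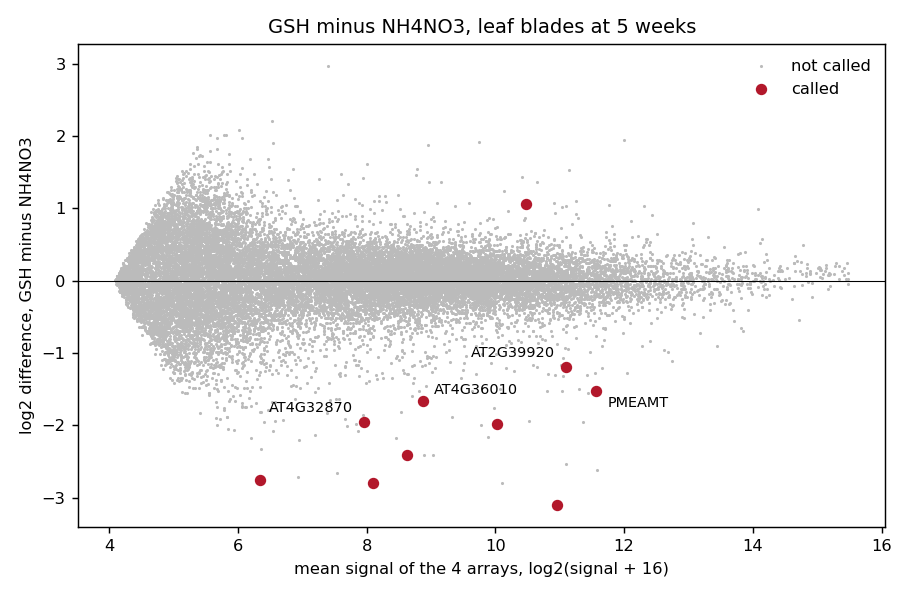
The log2 difference, GSH minus NH4NO3, of every probe set at 5W against the log2 of its mean signal over the 4 arrays plus 16; red points are the 10 called probe sets. Of the red points 9 lie below 0 and 1 lies above it, and the grey points fan out at low signal.

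PMEAMT, which encodes a phosphomethylethanolamine N-methyltransferase of the route to phosphocholine and so to membrane lipids, was the brightest of the 4 called genes with a name. Its signal was 1969 and 1169 with GSH, against 5284 and 3659 with NH4NO3. Both GSH arrays lay below both NH4NO3 arrays, and also near the values with GSSG (2032 and 1387) and with water (2124 and 1694). PMEAMT averaged 1569 ± 566 with GSH and 4472 ± 1149 with NH4NO3 (SD, n = 2 each), a log2 difference of -1.52 ± 0.24 (SE, limma adjusted p = 0.0141). The call was lost without GSH replicate 2 (adjusted p = 0.497) and without NH4NO3 replicate 1 (adjusted p = 0.207). A related methyltransferase gene, AT1G73600, singled out after its values were seen, had 2689 and 2216 with GSH and 6694 and 5250 with NH4NO3. Its difference of -1.27 ± 0.32 did not pass (limma adjusted p = 0.265).

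AT4G36010 encodes a protein of the thaumatin family, whose members include pathogenesis-related proteins. It had signals of 241 and 178 with GSH, against 785 and 611 with NH4NO3. With water it had 442 and 405, between the GSH and the NH4NO3 arrays. AT4G36010 averaged 210 ± 44.4 with GSH and 698 ± 123 with NH4NO3 (SD, n = 2 each) and fell by 1.67 on the log2 scale (SE 0.26, limma adjusted p = 0.0141). Without GSH replicate 1 it stayed called, and without GSH replicate 2, NH4NO3 replicate 1 or NH4NO3 replicate 2 its adjusted p was 0.404, 0.193 and 0.0753.

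AT2G39920 encodes a protein of the HAD superfamily of acid phosphatases. Its replicates were close together, at 1286 and 1331 with GSH, against 2941 and 3102 with NH4NO3. Water gave 1615 and 1558, a little above GSH and far below NH4NO3. The means were 1309 ± 31.9 with GSH and 3021 ± 114 with NH4NO3 (SD, n = 2 each), a log2 difference of -1.20 ± 0.20 (SE, limma adjusted p = 0.0235). The call was lost without any 1 of the 4 arrays (adjusted p from 0.143 to 0.388).

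AT4G32870 belongs to the polyketide cyclase and lipid transport superfamily. It was dim with GSH, at 75.3 and 97.4, against 418 and 343 with NH4NO3. GSSG (58.6 and 129) and water (62.8 and 84.4) were also low, so NH4NO3 alone stood apart at this harvest. AT4G32870 averaged 86.4 ± 15.6 with GSH and 381 ± 53 with NH4NO3 (SD, n = 2 each), a log2 difference of -1.96 ± 0.35 (SE, limma adjusted p = 0.0461). This call, the nearest to the threshold, was lost without any 1 of the 4 arrays (adjusted p from 0.179 to 0.388) and with quantile normalization.

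Of the 6 called probe sets without a gene name, 261979_at had the largest difference and the smallest p. Its signal was 395 and 401 with GSH, against 3825 and 3247 with NH4NO3, and 901 and 917 with water. The log2 difference was -3.10 ± 0.37 (SE, limma adjusted p = 0.00179), and it lost its call without GSH replicate 2 (adjusted p = 0.0621). Probe set 250832_at had 66.6 and 41.1 with GSH and 450 and 475 with NH4NO3 (-2.80 ± 0.44, limma adjusted p = 0.0141), and was lost without any 1 of the 4 arrays (adjusted p from 0.0565 to 0.403). The 1 probe set called higher was 247741_at, with 1612 and 2237 with GSH and 830 and 977 with NH4NO3 (1.06 ± 0.18, limma adjusted p = 0.0235). It was higher still with GSSG (2528 and 2692) and with water (2850 and 2910). Its call was lost without GSH replicate 2 (adjusted p = 0.569), NH4NO3 replicate 1 (0.21) or NH4NO3 replicate 2 (0.109).

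The next 6 named genes on the lower side did not pass the test, although their GSH and NH4NO3 arrays did not overlap, as was so for 35.7% of all probe sets. All 6 were called only when the replicate number was a block of the model, apart from 1 case given below. SWEET17, a fructose carrier of the vacuolar membrane, had 372 and 302 with GSH and 1302 and 1462 with NH4NO3 (-1.99 ± 0.37, limma adjusted p = 0.0632). It was also above GSH with water (1117 and 789). MT1C, a metallothionein, a small cysteine-rich metal-binding protein, had 967 and 1097 with GSH and 2543 and 2539 with NH4NO3 (-1.29 ± 0.28, limma adjusted p = 0.115). AT1G13750, of the purple acid phosphatase family, had 585 and 762 with GSH and 1273 and 1927 with NH4NO3 (-1.21 ± 0.26, limma adjusted p = 0.113), and water was below both, at 410 and 376. AT5G05960, of the lipid-transfer protein family, had 642 and 293 with GSH and 1765 and 1282 with NH4NO3 (-1.76 ± 0.34, limma adjusted p = 0.0865); without GSH replicate 1 it was called.

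AT1G49500 had its lowest signals with water. It had 1325 and 836 with GSH and 3813 and 4429 with NH4NO3, but 263 and 280 with GSSG and only 8.04 and 7.05 with water. The 4 waterings were therefore in the order water, GSSG, GSH and NH4NO3 from low to high, with no overlap between neighbours. Its difference of -1.95 ± 0.37 between GSH and NH4NO3 did not pass (limma adjusted p = 0.0632). AT2G18690 showed no such order, with 139 and 159 with GSH, 971 and 764 with NH4NO3, and 202 and 187 with water (-2.41 ± 0.48, limma adjusted p = 0.0887). The order of AT1G49500 did not hold at 4W. There water gave 3427 and 7568, above GSH (1990 and 2209) and GSSG (2686 and 2439) and overlapping NH4NO3 (4510 and 11015).

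**Figure D2:**
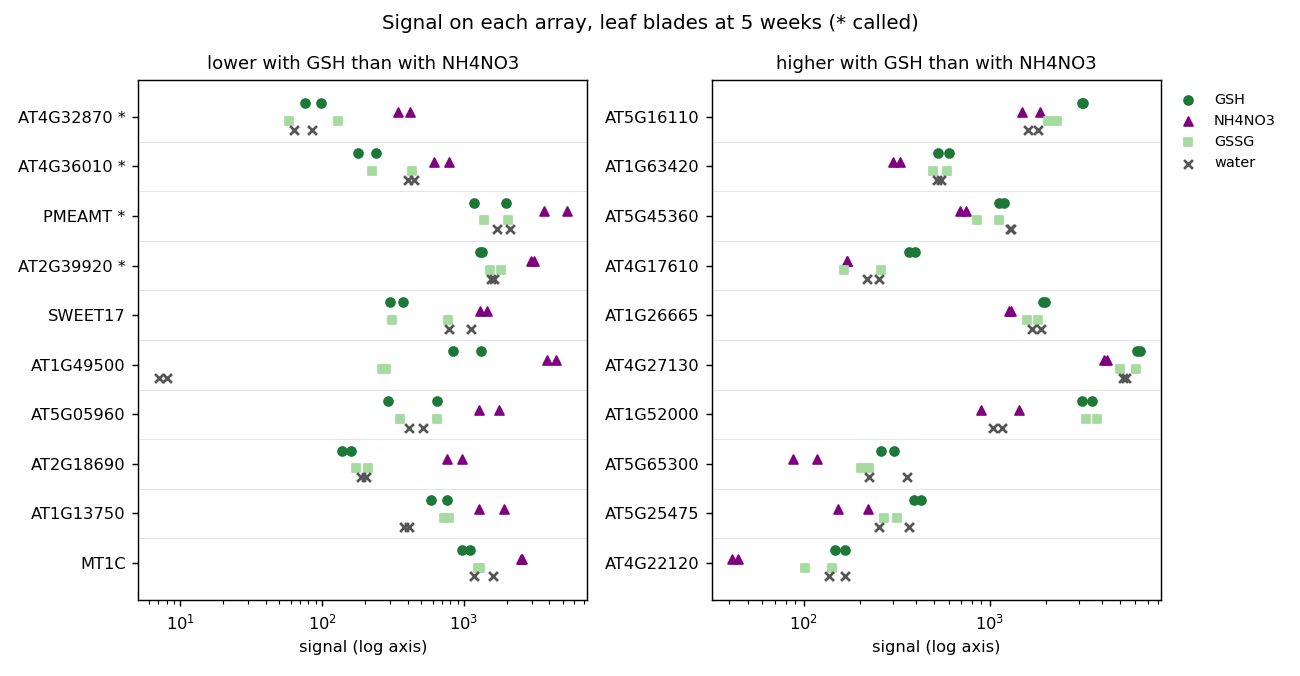
Signal on each 5W array (log axis) of the named genes lower with GSH, left, and higher with GSH, right; each marker is 1 array of GSH, NH4NO3, GSSG or water, and an asterisk marks a call. In every row both GSH markers lie on one side of both NH4NO3 markers, since the genes were chosen that way, and AT1G49500 spans from 7.05 with water to 4429 with NH4NO3.

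On the higher side no gene with a name passed. The 10 with the smallest p had limma adjusted p-values from 0.112 to 0.288. AT5G16110 had the smallest p of them, with 3134 and 3169 with GSH against 1862 and 1479 with NH4NO3 (0.92 ± 0.19, limma adjusted p = 0.112), while water gave 1806 and 1608. AT1G52000, a lectin of the jacalin family, had 3509 and 3103 with GSH against 900 and 1428 with NH4NO3 (1.53 ± 0.39, limma adjusted p = 0.27). With GSSG it was as high as with GSH (3746 and 3256) and with water as low as with NH4NO3 (1163 and 1042). AT4G22120, of the OSCA family of osmosensitive calcium channels, had 167 and 148 with GSH and 41.5 and 44.3 with NH4NO3 (1.55 ± 0.41, limma adjusted p = 0.288), and 137 and 166 with water.

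Of the other 7, the signals of 3 are given here. AT4G27130, a translation initiation factor of the SUI1 family, had 6401 and 6141 with GSH and 4267 and 4109 with NH4NO3 (0.58 ± 0.15, limma adjusted p = 0.252). AT1G26665, a Mediator complex subunit that acts in transcription, had 1936 and 1971 with GSH and 1266 and 1298 with NH4NO3 (0.60 ± 0.15, limma adjusted p = 0.252). AT4G17610, of a family of RNA methyltransferases, had 398 and 367 with GSH and 171 and 170 with NH4NO3 (limma adjusted p = 0.233). The remaining 4 were AT1G63420, AT5G45360 (an F-box protein), AT5G65300 and AT5G25475 (a B3-domain protein), with differences from 0.67 to 1.34.

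Leaf blades from plants given water show where each solution lay. Both comparisons with water use the same 2 water arrays, and each shares its fed arrays with the comparison of GSH and NH4NO3, so the values stand side by side and no overlap of calls is read from them. PMEAMT differed from water by -0.32 with GSH (limma adjusted p = 0.66) and by 1.21 with NH4NO3 (adjusted p = 0.0081). For AT2G39920 the differences were -0.27 with GSH (adjusted p = 0.643) and 0.92 with NH4NO3 (adjusted p = 0.0153). AT4G32870 gave 0.19 with GSH (adjusted p = 0.895) and 2.15 with NH4NO3 (adjusted p = 0.00145). AT4G36010 lay on both sides of water, at -0.97 with GSH (adjusted p = 0.067) and 0.69 with NH4NO3 (adjusted p = 0.219), and neither passed.

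Over all probe sets limma called 338 for GSH against water (1.49%) and 504 for NH4NO3 against water (2.22%) at 5W. Of the 10 named genes with the smallest p on the higher side, AT5G16110 and AT1G52000 were called above water with GSH (0.88, adjusted p = 0.0244, and 1.57, adjusted p = 0.0494). AT1G63420, AT5G45360 and AT5G65300 were called below water with NH4NO3 (-0.73, adjusted p = 0.0358, -0.84, adjusted p = 0.00649, and -1.35, adjusted p = 0.0459). The other 5 of the 10 were called against water with neither solution.

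**Figure D3:**
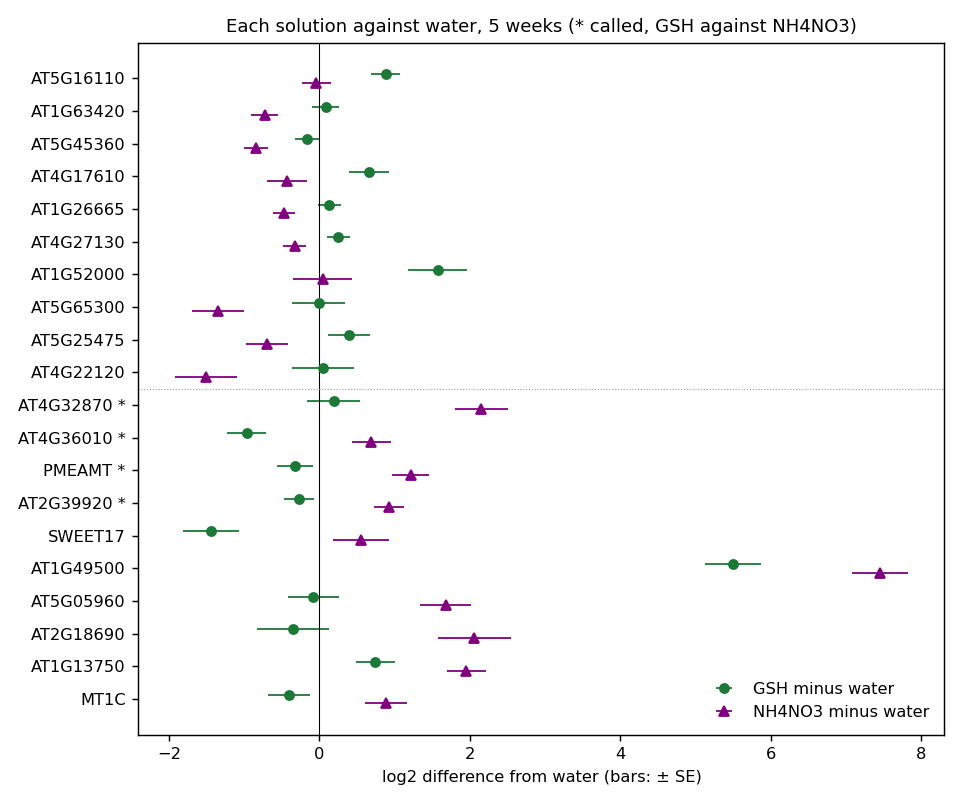
Log2 difference from water at 5W of the 20 named genes, with GSH (circles) and with NH4NO3 (triangles); bars are the SE, an asterisk marks a call between GSH and NH4NO3, and a dotted line parts the higher from the lower genes. For PMEAMT, AT2G39920 and AT4G32870 the circle lies within 0.32 of water and the triangle lies at 0.92 or more.

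A week earlier the same solutions were compared in leaf blades on other arrays. At 4W limma called 42 probe sets (0.185%), 18 higher (0.0791%) and 24 lower (0.106%) with GSH. All 10 probe sets called at 5W had the same sign at 4W and 2 of the 10 were called there too (2 of the 42 called at 4W); 53.7% of all probe sets had the same sign at both harvests. The shared calls were 261979_at, with a 4W difference of -3.02 (limma adjusted p = 0.000444), and 250832_at, with -2.98 (adjusted p = 0.00282). Without NH4NO3 replicate 2 of 4W the 4W count was 25 and the 4W call of 250832_at was lost (adjusted p = 0.0835). In the other direction, 39 of the 42 probe sets called at 4W had the same sign at 5W. The 3' to 5' ratio of actin was 3.08 and 4.29 on the 4W GSH arrays and 3.21 and 4.79 on the 4W NH4NO3 arrays, so it differed more between replicates than between solutions; its part in the 4W values was not tested.

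The 4 called genes with a name differed at 4W in the same direction without passing. PMEAMT had 2476 and 2657 with GSH and 5269 and 5729 with NH4NO3 (-1.09, limma adjusted p = 0.0848). AT4G36010 had 127 and 197 with GSH and 373 and 375 with NH4NO3 (-1.16, adjusted p = 0.0917). AT2G39920 had 1359 and 1356 with GSH and 2193 and 3153 with NH4NO3 (-0.95, adjusted p = 0.0622). AT4G32870 had 172 and 302 with GSH and 363 and 504 with NH4NO3 (-0.86, adjusted p = 0.567). For each of the 4 the GSH arrays lay below the NH4NO3 arrays at both harvests. At 4W the arrays were apart, in either direction, for 32.6% of all probe sets. MT1C, not called at 5W, was called at 4W (-1.70, adjusted p = 0.00836), with 1256 and 1553 with GSH and 3587 and 5817 with NH4NO3. Without GSH replicate 1 or NH4NO3 replicate 2 of 4W its adjusted p was 0.11 and 0.169.

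The water arrays of these genes lay elsewhere at 4W, a difference that was not tested. At 4W PMEAMT had 4698 and 5034 with water, close to NH4NO3, whereas at 5W water lay close to GSH. The same held for AT2G39920, with 2530 and 3066 with water at 4W, and for 261979_at, with 1873 and 3743, although its 5W water arrays lay between GSH and NH4NO3. At 4W the GSH arrays lay below both water arrays in 9 of the 9 probe sets called lower at 5W (21.1% of all probe sets) and the NH4NO3 arrays above both in 3 of 9 (13.2%). At 5W the NH4NO3 arrays lay above both water arrays in 9 of 9 (17.4%) and the GSH arrays below both in 5 of 9 (22.8%). The 9 were chosen with the 5W arrays, so the 5W counts describe them and the 4W counts come from other arrays.

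**Figure D4:**
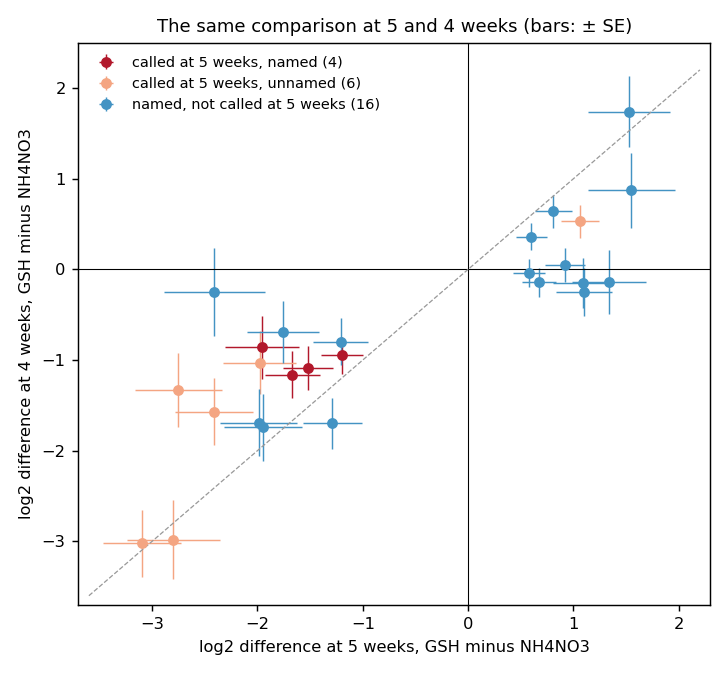
Log2 difference, GSH minus NH4NO3, at 5W (x axis) and at 4W (y axis) of the 10 called probe sets and of the 16 named genes not called at 5W, each with its SE; the dashed line marks equal differences. The 9 probe sets called lower lie in the lower left, from -1.20 to -3.10 at 5W, and the 10 higher named genes lie between -0.25 and 1.74 at 4W.

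The difference between the harvests was tested as an interaction, and limma called 2 probe sets (0.00879%), with 1164 at an unadjusted p under 0.05 (5.12%). AT2G16660, of the major facilitator family of membrane transporters, had 1905 and 1712 with GSH and 2563 and 2639 with NH4NO3 at 5W. At 4W it had 757 and 573 with GSH and 6991 and 4604 with NH4NO3. The GSH arrays were lower at both harvests, with a log2 difference of -0.52 at 5W (limma adjusted p = 0.819) and of -3.08 at 4W (limma adjusted p = 8.62e-06), and the interaction was 2.55 ± 0.38 (adjusted p = 0.0349). The other was 250580_at, with -0.12 at 5W and 1.64 at 4W (interaction -1.76 ± 0.27, limma adjusted p = 0.0349). Left-out arrays ended the interaction call of AT2G16660 for all but GSH replicate 1 and NH4NO3 replicate 2 of 4W (adjusted p from 0.06 to 0.245). They ended that of 250580_at for all but the replicate 1 arrays of GSH at 4W and 5W (adjusted p from 0.06 to 0.369). None of the 10 probe sets called at 5W was among these.

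Gene lists for nitrogen, sulfur, glutathione and other leaf functions held 96 entries with a probe set named here, including the marker lists, and limma called 0 of them at 5W (0.044% of all probe sets), with 15 at an unadjusted p under 0.05 (6.23% of all probe sets). Their lists are described by counts and medians beside the median of 0.03 over all probe sets. For nitrate transport 2 of 16 genes were measured. NRT2.5, a root and leaf nitrate carrier of high affinity that is switched on when plants lack nitrogen, had 71.3 and 104 with GSH, against 19.5 and 36.4 with NH4NO3 and 219 and 209 with water. GSH thus lay between NH4NO3 and water without overlap, and the difference from NH4NO3 was 1.25 ± 0.50 (limma adjusted p = 0.719). AT2G26690 (NPF6.2, a low-affinity nitrate transporter) had 571 and 280 with GSH, 649 and 544 with NH4NO3 and 179 and 146 with water. None of the 25 genes of nitrate reduction and ammonium assimilation had a probe set named here.

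The nitrate-responsive regulators measured were 5 members of the HHO family of GARP transcription factors, of 20 genes on the list, with a median of -0.12. HHO3 (AT1G25550), a nitrate-inducible repressor of nitrogen starvation genes, had 837 and 721 with GSH, 1353 and 1206 with NH4NO3, and 163 and 157 with water. Its arrays did not overlap between GSH and NH4NO3, and the difference was -0.71 ± 0.25 (limma adjusted p = 0.614). HHO2 (AT1G68670) had 878 and 718 with GSH, and its difference from NH4NO3 was -0.23 ± 0.32 (adjusted p = 0.977). HHO6 (AT1G49560) differed by 0.17 ± 0.19 (adjusted p = 0.951). Against water HHO3 was called higher with both solutions, by 2.17 with GSH (adjusted p = 6.06e-05) and by 2.88 with NH4NO3 (adjusted p = 2.44e-06).

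Few of the sulfur and glutathione genes were measured and none of those passed. With 0.044% of all probe sets called, this count says little about these genes. Of 25 genes of sulfate uptake and assimilation 3 were measured, with a median of -0.11. SIR, the sulfite reductase, had 3064 and 4336 with GSH and 4483 and 5263 with NH4NO3 (-0.41 ± 0.17, limma adjusted p = 0.742). The ATP sulfurylases APS4 and APS3, which activate sulfate, differed by 0.25 ± 0.16 (adjusted p = 0.889) and -0.11 ± 0.22 (adjusted p = 0.985). The sulfur deficiency markers BGLU28, a dim beta-glucosidase gene, and AT1G04770 (SDI2) differed by 0.86 ± 0.55 and 0.13 ± 0.30 (adjusted p = 0.878 and 0.992). The glutathione reductases GR1 and GR, the 2 of 23 genes of glutathione metabolism measured, differed by -0.29 ± 0.15 and -0.21 ± 0.17 (adjusted p = 0.819 and 0.916).

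Of 34 glutathione S-transferases 8 were measured, 5 positive and 3 negative, with a median of 0.20. The probe set of GSTU20 had the highest signals of the list, with 5416 and 3348 with GSH and 9010 and 9456 with NH4NO3 (-1.11 ± 0.31, limma adjusted p = 0.377). GSTU27 differed by 0.40 ± 0.25 and GSTU26 by -0.34 ± 0.28 (adjusted p = 0.878 and 0.918). CC-type glutaredoxins, small plant-specific oxidoreductases that work with TGA transcription factors, were the best covered list, with 16 of 20 measured. Their median was -0.60, 11 of the 16 were negative, and in 10 the GSH arrays lay below both NH4NO3 arrays (15.2% of all probe sets). The members with the smallest p were AT1G03020, with 13.3 and 27 with GSH and 83.8 and 139 with NH4NO3 (-1.81 ± 0.54, limma adjusted p = 0.404), AT4G15700 (-1.01 ± 0.42, adjusted p = 0.735) and AT4G15660 (-1.23 ± 0.54, adjusted p = 0.76). Of these entries 8 of 16 had signals above 106.7 in the higher group.

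At 4W the glutaredoxins had a median of -1.02 and 5 of the 16 were called lower with GSH (0.106% of all probe sets), among them AT4G15700, with 23 and 14.3 with GSH and 303 and 368 with NH4NO3 (-3.35, limma adjusted p = 0.000568). AT4G15660 was called there as well (-3.76, adjusted p = 0.00222). At 5W AT4G15700 had 2.83 and 2.33 with GSH and 11.6 and 34.9 with NH4NO3, so its NH4NO3 signal was far below that of 4W. The interaction between harvests did not pass for AT4G15700 (2.33 ± 0.60, adjusted p = 0.609) or AT4G15660 (2.53 ± 0.76, adjusted p = 0.808). AT4G15660, AT4G15680, AT4G15690 and AT4G15700 are neighbouring genes of much alike sequence, so that their probe sets may share signal. All of these neighbours were among the 5 called at 4W, and the other was AT1G06830 (limma adjusted p = 0.00976).

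**Figure D5:**
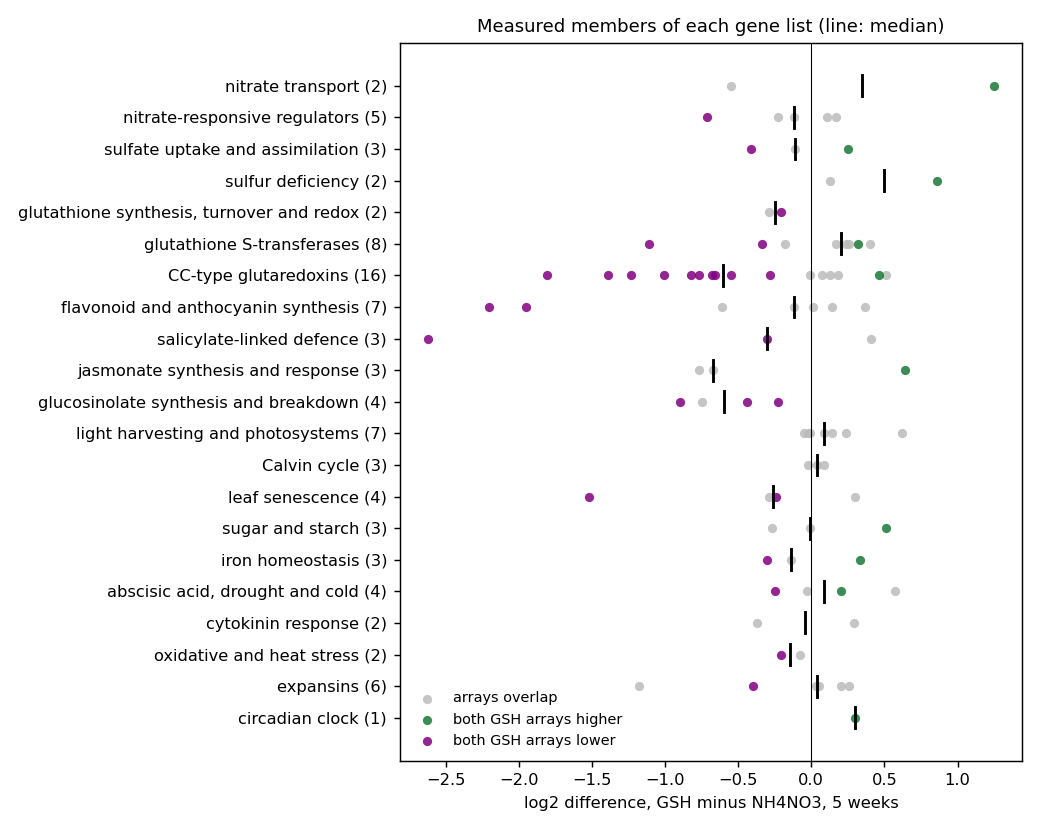
Log2 difference, GSH minus NH4NO3, at 5W of the measured members of each gene list, with the number measured in brackets and a black line at the list's median; colour shows whether both GSH arrays lay above, below or among the NH4NO3 arrays. The glutaredoxins have a median of -0.60 with 10 of 16 members in the lower colour. The light harvesting and Calvin cycle lists have medians of 0.09 and 0.04, and LHCB4.3 of the former lies at 0.62.

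Defence and senescence genes included 2 large differences that did not pass. AT5G03350, a legume lectin gene known to respond to salicylate, had 1527 and 416 with GSH, 4224 and 5946 with NH4NO3, and 107 and 12.2 with water. It differed by -2.62 ± 0.62 between GSH and NH4NO3 (limma adjusted p = 0.198) and was called above water with both. WRKY53, a transcription factor that promotes leaf senescence, had 206 and 229 with GSH, 656 and 645 with NH4NO3, and 204 and 302 with water (-1.52 ± 0.38, limma adjusted p = 0.252). At 4W their differences were 0.32 and 0.10. The other salicylate genes, SAG101 and UGT76B1, differed by -0.30 and 0.41. The other senescence genes ranged from -0.29 to 0.30, and the jasmonate genes THI2.1, PDF1.2 and PDF1.2b from -0.77 to 0.64, with adjusted p of 0.918 or more.

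The 4 measured glucosinolate genes of 32, which make sulfur-rich defence compounds, were all negative at 5W, where 54.0% of all probe sets were positive. Their median was -0.60 at 5W and -0.46 at 4W. BCAT4, an aminotransferase of methionine chain elongation, had 8870 and 6651 with GSH and 13948 and 14784 with NH4NO3 (-0.90 ± 0.27, limma adjusted p = 0.428). The others were AOP3 (-0.75 ± 0.55), AT2G31790 (-0.44 ± 0.28) and UGT74B1 (-0.23 ± 0.21), with limma adjusted p from 0.875 to 0.927. AOP3 was dim and its arrays overlapped, at 7.83 and 56.6 with GSH and 76.1 and 36.9 with NH4NO3. At 4W it differed by 0.16. Of 32 flavonoid genes 7 were measured, with a median of -0.12. DFR, dihydroflavonol reductase of anthocyanin synthesis, had 43.2 and 6.01 with GSH, 67.7 and 311 with NH4NO3, and 3171 and 2104 with water. The anthocyanin glycosyltransferase gene UF3GT had 35.4 and 5.76 with GSH and 86.5 and 146 with NH4NO3. Both were lower on the GSH arrays than on the NH4NO3 arrays, and the differences of -2.20 ± 0.97 and -1.95 ± 0.80 did not pass (limma adjusted p = 0.76 and 0.722). In the other measured flavonoid genes the arrays overlapped. Of these, AT4G14090 (UGT75C1) had 106 and 73.8 with GSH and 73.8 and 267 with NH4NO3 (-0.61 ± 0.74, limma adjusted p = 0.967). The rest ranged from -0.12 to 0.37.

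No measured gene of photosynthesis passed, where 0.044% of all probe sets were called. The 7 measured light harvesting and photosystem genes of 41 had a median of 0.09, and in 0 of 7 were the GSH and NH4NO3 arrays apart (35.7% of all probe sets). LHCB4.3 had the largest difference of them (0.62 ± 0.27, limma adjusted p = 0.76). The 3 measured Calvin cycle genes, RCA, PRK and SBPASE, lay between -0.02 and 0.09 (adjusted p of 0.985 or more). The sugar and starch genes AKINBETA1, APL3 and SWEET11 differed by 0.51, -0.27 and -0.01. Lists for iron, abscisic acid and cold, cytokinin and oxidative stress had medians between -0.15 and 0.08, and no member in them had an adjusted p under 0.891. Of 6 measured expansins, which loosen cell walls, EXLA1 differed most (-1.18 ± 0.64, adjusted p = 0.839), and the clock gene GI differed by 0.30 ± 0.18 (adjusted p = 0.874).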

How the data were processed

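Total RNA (100 ng) of each sample was amplified from the 3' end, labelled with biotin and put on 1 Affymetrix array, per the labels' protocols. The deposited values are signal intensity on a linear scale, made with Affymetrix Expression Console per the submitters' processing notes; the version is not given in the sources used here, nor the summary method. The scale was settled from the values, which have the same trimmed mean on all 24 arrays.

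Samples were grouped by their titles. The 64 control probe sets were left out, log2(signal + 16) was taken, and limma 3.58.1 in R 4.3.3 fitted 1 mean for each of 12 groups (12 residual degrees of freedom, intensity trend, Benjamini-Hochberg over 22746 probe sets). No probe set was filtered. Genes were named from the platform annotation, updated through RefSeq symbols: 13513 probe sets have 1 gene, 503 have several and 8730 have none here. A list entry used the brightest probe set of its gene.

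The named genes have 1 gene, reach a group mean over the 40th percentile of signal (106.7), and have GSH and NH4NO3 arrays that do not overlap; of these, called genes come first, then those of smallest p up to 10 a direction. List members were to be named if called, otherwise the 3 of smallest p, but this was not kept for every list. The senescence, light harvesting and expansin lists name fewer. The iron, abscisic acid and cold, cytokinin, oxidative stress and some marker lists name none. AT1G73600 and a few further list members were named after their values were seen. The comparison, lists and alternatives were chosen with earlier results of these data known. The number of arrays, 2 a group, limits the precision. Alternatives were other normalizations, pseudocounts, variance settings, array subsets and left-out arrays.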

Additional observations from a re-analysis of the deposited data

Results flagged for a closer look

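The difference between GSH and NH4NO3 differed between the harvests in 2 probe sets, by the interaction test of limma. For AT2G16660 the difference at 5W minus that at 4W was 2.55 (adjusted p = 0.0349), with 1809 ± 137 with GSH and 2601 ± 53.5 with NH4NO3 at 5W, and 665 ± 130 with GSH and 5797 ± 1688 with NH4NO3 at 4W (SD, n = 2 each). For 250580_at it was -1.76 (adjusted p = 0.0349), with 775 ± 199 with GSH and 828 ± 59.1 with NH4NO3 at 5W, and 2023 ± 558 with GSH and 626 ± 78.1 with NH4NO3 at 4W (SD, n = 2 each).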

How the results depend on the processing

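The 5W count of 10 became 3 with no intensity trend, 0 with only the 4W and 5W arrays (1135 at an unadjusted p under 0.05 by limma), 1 with only the arrays compared, and between 0 and 6 when each array was left out. Under quantile normalization, median centring, the 40th percentile filter, pseudocounts of 1 and 64 and a robust prior it was between 9 and 12. The 4W count of 42 became 22 with no intensity trend, 18 with only the 4W and 5W arrays, 0 with only the arrays compared (1104 unadjusted), and between 25 and 35 when each array was left out. The interaction count of 2 became 0 with quantile normalization (1199 unadjusted), 5 with a pseudocount of 64, 0 with no intensity trend (1206 unadjusted), 0 with only the 4W and 5W arrays (922 unadjusted), 0 with only the arrays compared (902 unadjusted), and between 0 and 3 when each array was left out. The causes were not tested.

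The replicate number as a block of the model gave 51 calls at 5W (8 higher and 43 lower, including the 10), 133 at 4W and 7 for the interaction. With this replicate block SWEET17, AT1G49500, AT5G05960, AT2G18690, AT1G13750, MT1C and AT5G16110 were called. Same-numbered 5W arrays of GSH and NH4NO3 deviated together (r = 0.385 across probe sets, which are not independent), and r ran from 0.039 to 0.385 over all pairs of groups; the labels do not say what the numbers share.

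Every GSH minus NH4NO3 difference at 5W of the named genes and called probe sets kept its direction under all alternatives. The GSH and NH4NO3 arrays of these probe sets did not overlap, so only the normalizations could have changed a direction. For the other alternatives this outcome was fixed in advance. Differences from water were recomputed for the 10 called probe sets alone. With GSH, 3 of them ran over 0 when arrays were left out, PMEAMT (from -0.69 to 0.05 without 5W GSH replicate 2), 250832_at (from -0.01 without 5W water replicate 1 to 1.35) and 265475_at (from -0.22 without 5W GSH replicate 1 to 0.49). Dim probe sets limit the comparison, with signals under 100 making up 39.4% to 43.7% of each array.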
